A study of Homo sapiens with 12 samples.

Results

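A set of 10 genes of the interleukin-6 (IL6) cytokine family were followed across an A375 melanoma RNA-seq experiment: the ligands IL6, IL11, LIF and CLCF1, the receptor subunits IL6ST, IL6R, OSMR and LIFR, the transcription factor STAT3 and the inhibitor SOCS3. They were chosen by name, with earlier results of these data known, from the 56609 gene symbols of the count table. Of the 10, 9 passed the filter on low counts that left 21698 genes for testing. A375 is an established human malignant melanoma cell line from skin. The cells were wild type, or carried a CRISPR/Cas9 knockout of MAPKAPK2, which encodes the stress-activated kinase MK2. Both genotypes were treated for 48 h with DMSO, the solvent, or with 500 nM JQ1, an inhibitor of the BET bromodomain proteins. This gave 4 groups of 3 libraries each: wild type in DMSO, wild type in JQ1, knockout in DMSO and knockout in JQ1. The DMSO samples are called untreated in their titles and DMSO in their treatment field. The series concerns how loss of MAPKAPK2 affects resistance to BET inhibitors, and the labels used here do not say whether the knockout cells were 1 clone or a pool. Nor do they say how the replicates were separated, so p-values measure the spread between these libraries, which may be technical.

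Cytokines of this family bind a receptor subunit on the cell surface and bring it together with IL6ST, also called gp130, the signalling chain that they share. IL6 and IL11 use gp130 with their own alpha subunits, LIF uses gp130 with LIFR, and oncostatin M uses gp130 with OSMR or LIFR. The bound kinases JAK1, JAK2 and TYK2 phosphorylate STAT3, which enters the nucleus and induces genes that include SOCS3, and SOCS3 binds gp130 and JAK to shut the signal down. Many cytokine mRNAs carry AU-rich elements in the 3′ untranslated region, and the MK2 pathway is known to stabilize such mRNAs by phosphorylating the destabilizing protein ZFP36. BET proteins read acetylated histones and promote transcription elongation, and JQ1 displaces them from chromatin.

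The AU-rich element is shown for the 4 ligands and SOCS3 because it is the sequence through which the targeted kinase is known to act on cytokine mRNAs. Each line is a 29-base window from the longest annotated 3′ untranslated region of the gene (GENCODE 29, GRCh38), written 5′ to 3′ as DNA, with the motif TATTTAT in capitals.
IL6: ttttaaagaaaTATTTATattgTATTTAT
IL11: ccaaagccagatctTATTTATTTATTTAT
LIF: atttcTATTTATtatgatatccTATTTAT
CLCF1: aTATTTATTTATttggagatgtTATTTAT
SOCS3: agtcaaactttgcacaTATTTATATTTAT
Over the whole region, counting overlapping copies on the strand of the mRNA, TATTTAT occurred 3 times in IL6, 7 times in IL11, 5 times in LIF and 4 times in CLCF1. SOCS3 held 2 copies, OSMR held 3, IL6ST and LIFR held 1 each, and IL6R and STAT3 held none. Among 19132 protein-coding genes with such a region, 31.1% held at least 1 copy and 6.01% held 3 or more. The regions differ in length, from 429 bases in IL6 to 7641 in IL6ST, and a match describes letters and not a working site.

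The knockout label was checked on MAPKAPK2 itself. Its level was 89.6 ± 2.20 CPM (counts per 1000000 counts of the scaled library; SD, n = 3) in wild-type cells in DMSO and 12.4 ± 1.15 CPM in knockout cells in DMSO. In JQ1 it was 117 ± 4.31 CPM in wild-type cells and 14.4 ± 1.61 CPM in knockout cells. The knockout mean was 13.9% of that of wild-type cells under DMSO and 12.3% under JQ1. Library totals ran from 25316899 to 34594295 counts, with a mean of 30189017 ± 3281352 (SD, n = 12). The library of knockout cells in JQ1 labelled replicate 3 stood apart: its chi-square per degree of freedom against the other two of its group was 28.1 and 29.7, against 3.50 to 8.06 for all other replicate pairs. It was the highest of its group for IL11, LIF, CLCF1, IL6R, STAT3 and SOCS3 and the lowest for IL6ST, OSMR and LIFR. Several results of members are therefore also given without it, while fold changes of single pathway genes are given only with it. Of 10 melanocyte and melanoma markers, 5 averaged 1 CPM or more across the 12 libraries. SOX10 lay between 437 and 563 CPM in the group means and MITF between 28.8 and 43.1 CPM, while MLANA was below 1 CPM and TYR at or near 0. Of 5 epithelial markers, 2 reached that mean: KRT18 had group means of 125 to 140 CPM and made up most of the list's sum of 115 to 146 CPM, while CDH1 was at 0 in every library and EPCAM at or near 0. Of 5 leukocyte markers, 1 reached it: LYZ had group means of 2.44 and 2.46 CPM in DMSO and 0.856 and 1.06 CPM in JQ1, in wild type and knockout respectively, while PTPRC lay at 0.162 to 0.202 CPM. The sum of the leukocyte list was 3.19 to 3.85 CPM in DMSO and 1.79 to 2.40 CPM in JQ1. Of 4 endothelial markers, 1 reached it, KDR; the list's sum was 9.91 to 12.5 CPM in wild type and 4.04 to 5.13 CPM in knockout cells in DMSO, and 12.1 to 13.0 CPM and 6.09 to 7.996 CPM in JQ1. Of 6 fibroblast markers, 3 reached it: PDGFRA, PDGFRB and LUM. The list's sum was 22.7 to 23.3 CPM in wild type in DMSO and 14.3 to 16.8 CPM in JQ1. In knockout cells it was 17.3 to 18.7 CPM and 9.81 to 12.1 CPM. From DMSO to JQ1, PDGFRA rose from 6.56 to 10.3 CPM in wild type and from 4.63 to 7.10 CPM in knockout cells. PDGFRB fell from 10.4 to 3.92 CPM and from 7.84 to 2.22 CPM. LUM fell from 3.86 to 0.504 CPM and from 4.36 to 0.631 CPM. The part of these differences in the results below was not tested.

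JQ1 moved most of the measured family, in both directions. In wild-type cells 7 of the 9 tested members passed an adjusted p of 0.05 (edgeR quasi-likelihood test, Benjamini-Hochberg over all genes tested), while 33.1% of all tested genes did. IL11, OSMR, STAT3 and SOCS3 rose, against 16.9% of all genes, and CLCF1, IL6R and LIFR fell, against 16.2%. In knockout cells 6 members passed, against 34.4% of all genes. IL11, OSMR and STAT3 rose there, against 16.7% of all genes, and CLCF1, IL6R and LIFR fell, against 17.8%. The median log2 fold change of the members was 0.18 in wild type and 0.08 in knockout cells, beside −0.03 and −0.004 over all tested genes. Fewer members differed between the genotypes, and whether the loss of MAPKAPK2 itself caused these differences was not tested. In DMSO, STAT3 and SOCS3 were higher and IL6R lower in knockout than in wild-type cells, 3 of 9 members against 7.92% of all genes, of which 3.47% were higher and 4.44% lower. In JQ1, STAT3 was higher and CLCF1 lower, 2 of 9 members against 8.57% of all genes, of which 3.01% were higher and 5.56% lower. Without the library that stood apart, 5 members passed in the DMSO comparison, with IL11 and IL6ST added on the lower side. The wild-type JQ1 count was 4 without wild-type DMSO replicate 1 or 2 or wild-type JQ1 replicate 1, and the DMSO count was 1 without wild-type DMSO replicate 1. The count between genotypes in JQ1 was 0 without wild-type JQ1 replicate 2 and 1 without wild-type JQ1 replicate 3 or knockout JQ1 replicate 1 or 2. The plot of fold changes sets these 4 comparisons side by side; comparisons that share a group of libraries are not independent of each other.

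**Figure D1:**
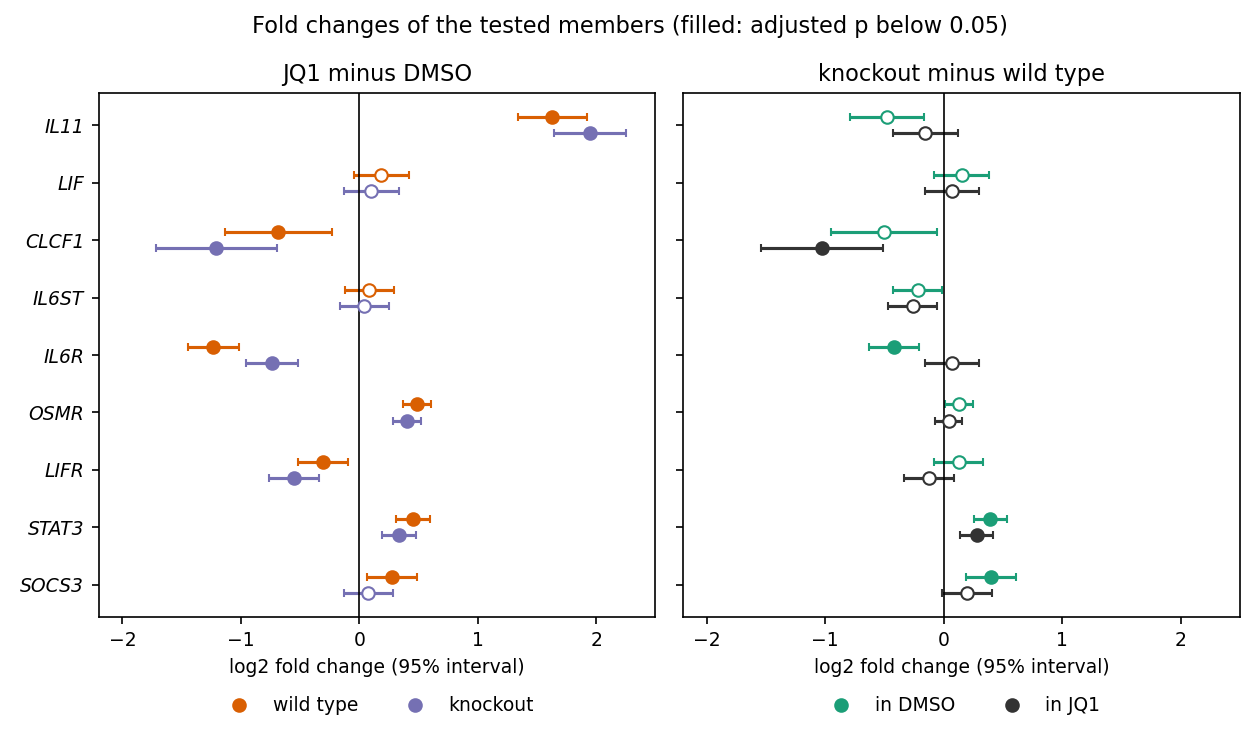
Log2 fold changes (x axis) of the 9 tested members (y axis), JQ1 minus DMSO on the left and knockout minus wild type on the right, with 95% intervals as bars and filled points where the adjusted p was below 0.05. IL11 stands at 1.63 and 1.95 under JQ1, IL6R at −1.23 and −0.74, and the knockout differences of STAT3 lie at 0.40 in DMSO and 0.28 in JQ1.

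IL6, the founding ligand and a major inducer of acute-phase and inflammatory responses, was not detectable at this depth. The gene (chr7:22725884-22732002, GRCh38) had 1 count in 1 library of wild-type cells in DMSO and 0 in the other 11 libraries. A count of 3, the limit that a count of 0 allows, correspond to 0.0825 to 0.122 CPM depending on the library, for counting error only. IL6 was therefore not tested, and no direction is given for it.

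IL11, a gp130 ligand known for fibrosis and for tumour-promoting signals, had the largest response to JQ1 among the tested ligands of the 10 members. Its levels in wild-type cells were 10.2, 11.2 and 11.1 CPM in DMSO and 34.9, 33.6 and 31.9 CPM in JQ1. In knockout cells they were 6.16, 9.17 and 8.11 CPM in DMSO and 27.4, 26.1 and 36.5 CPM in JQ1. Every JQ1 library was above every DMSO library, and every knockout library in DMSO was below every wild-type library in DMSO. JQ1 raised IL11 by 1.63 on the log2 scale in wild type (SE 0.14, 3.09-fold, adjusted p = 5.20e-07) and by 1.95 in knockout cells (SE 0.14, 3.86-fold, adjusted p = 1.05e-07). The rise in knockout cells was 1.78 (SE 0.12) without the library that stood apart. Between genotypes the IL11 difference was −0.47 in DMSO (SE 0.15, adjusted p = 0.0626), which did not pass, and −0.15 in JQ1 (SE 0.13, adjusted p = 0.570), where the groups overlapped. That overlap came from the library that stood apart, at 36.5 CPM. In the edgeR fit without it the difference in JQ1 was −0.32 (SE 0.11, adjusted p = 0.0721), which did not pass. The DMSO difference passed in 7 of 21 alternative analyses, among them DESeq2 with an adjusted p of 0.0298 and the fit without the library that stood apart with 0.0107; over all of them it ranged from 0.00249 to 0.225.

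The IL11 promoter is printed because this gene had the largest fold change among the members. The gene lies on the minus strand (chr19:55364389-55370463, GRCh38), and the 250 bases before its start (chr19:55370464-55370713, minus strand, RefSeq, GRCh38.p14) read 5′ to 3′ with a match to the AP-1 motif in capitals.
IL11: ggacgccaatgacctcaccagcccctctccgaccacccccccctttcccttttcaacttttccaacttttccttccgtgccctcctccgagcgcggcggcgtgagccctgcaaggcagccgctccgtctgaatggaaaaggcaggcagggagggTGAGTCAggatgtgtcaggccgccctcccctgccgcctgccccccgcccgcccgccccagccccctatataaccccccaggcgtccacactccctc
The AP-1 motif, searched as TGANTCA on both strands, matched from 96 to 90 bases before the start. It occurred in 6.57% of 35116 promoters of that length. Other motifs were searched in the same way: the STAT palindrome TTCNNNGAA, in 6.57% of promoters, the cAMP response element TGACGTCA, in 1.65%, and TATAAA, in 10.7%. Of the 10 members, 8 had entries in the set of RefSeq promoters used here, 11 in all. That set held none for LIF and CLCF1, so their promoters were not searched. Apart from IL11, only the entries of LIFR held a match, a STAT palindrome in each of 2 and TATAAA in 1. A match is a description of letters, and the data used here hold no measure of binding at these sites.

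LIF, which maintains pluripotency in mouse stem cells and is secreted by many tumours, did not pass in any comparison of the edgeR model over the 4 groups. Its levels were 42.4, 47.6 and 41.8 CPM in wild type in DMSO and 49.2, 55.3 and 45.1 CPM in wild type in JQ1. In knockout cells they were 42.5, 51.6 and 52.3 CPM in DMSO and 45.8, 51.0 and 60.1 CPM in JQ1. All 4 groups overlapped in range. The JQ1 difference of LIF was 0.18 in wild type, with a 95% interval from −0.05 to 0.42, and 0.10 in knockout cells, with an interval from −0.13 to 0.33. The knockout difference was 0.15 in DMSO, from −0.08 to 0.38, and 0.07 in JQ1, from −0.16 to 0.30. A response of LIF to JQ1 as large as that of IL11 lies outside both JQ1 intervals. With only the groups compared in the fit, the JQ1 difference in wild type was 0.20 and passed, at an adjusted p of 0.0368. LIF lies at chr22:30240447-30246851 and overlaps LIF-AS1, with 3 to 13 counts per library, and AC004264.1, with 26 to 69.

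CLCF1, a neurotrophic ligand that acts through the CNTF receptor, fell under JQ1 in both genotypes. It measured 4.92, 4.96 and 4.45 CPM in wild type in DMSO and 2.76, 3.45 and 2.72 CPM in wild type in JQ1. In knockout cells it measured 2.73, 4.19 and 3.19 CPM in DMSO and 1.29, 0.933 and 2.06 CPM in JQ1. Wild type in DMSO was above all other groups and knockout in JQ1 below all others, and the remaining groups, wild type in JQ1 and knockout in DMSO, overlapped. The change under JQ1 was −0.68 in wild type (SE 0.21, adjusted p = 0.0218) and −1.21 in knockout cells (SE 0.24, adjusted p = 0.00108). CLCF1 was also lower in knockout than in wild-type cells in JQ1, by −1.03 (SE 0.24, adjusted p = 0.0142), while the difference of −0.50 in DMSO did not pass (SE 0.21, adjusted p = 0.190). Without the library that stood apart, the knockout response was −1.58 and the knockout difference in JQ1 −1.41 (adjusted p = 9.17e-04). The wild-type response did not pass without wild-type DMSO replicate 1 or 2 or wild-type JQ1 replicate 1 or 3, with adjusted p from 0.0605 to 0.0799, nor with limma on the authors' normalized values (0.0707). The difference in JQ1 did not pass without wild-type JQ1 replicate 2 or knockout JQ1 replicate 1 or 2 (0.0525 to 0.0663), nor with only these groups in the fit (0.0559). CLCF1 rests on 23 to 165 counts per library and overlaps RAD9A on the opposite strand (chr11:67364168-67374177), which had 199 to 345 counts. The library kit keeps strand, but whether counting used it is not given in the sources used here. Overlaps were found between whole gene spans, and whether overlapping genes share exon sequence or reads was not tested.

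**Figure D2:**
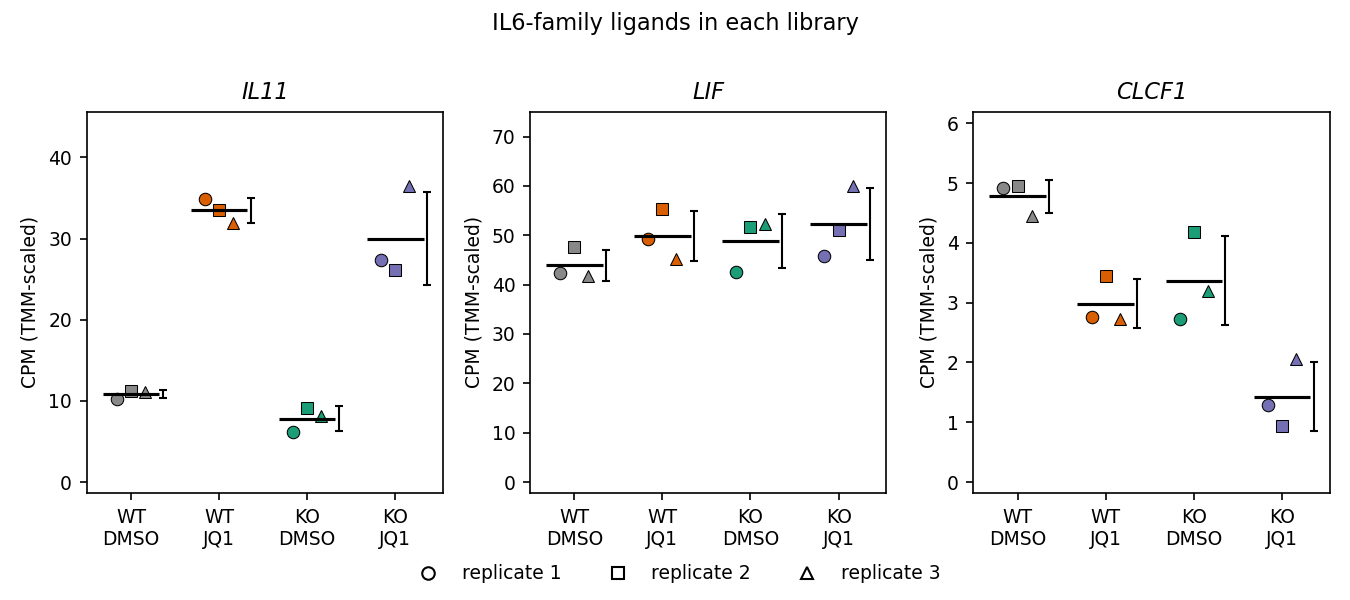
Levels of IL11, LIF and CLCF1 (y axis, CPM scaled by TMM, each panel on its own scale from 0) in the 12 libraries by group (x axis), with bars for the group mean and brackets for ± SD (n = 3). IL11 separates JQ1 from DMSO, LIF overlaps in all groups, and CLCF1 is lowest in knockout cells in JQ1, at 1.43 ± 0.574 CPM.

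IL6ST, the shared signalling chain gp130, did not pass in any comparison of the edgeR model with all libraries and the low-count filter. Its levels were 442, 410 and 430 CPM in wild type in DMSO and 432, 446 and 483 CPM in wild type in JQ1. In knockout cells they were 409, 337 and 355 CPM in DMSO and 421, 402 and 312 CPM in JQ1. Both knockout groups lay below the wild-type group of the same treatment without overlap. The IL6ST difference between genotypes was −0.22 in DMSO (SE 0.10, adjusted p = 0.221) and −0.26 in JQ1 (SE 0.10, adjusted p = 0.123). In DMSO it passed with only the groups compared (0.0480) and without the library that stood apart (0.0350). In JQ1 it passed with no low-count filter (0.00689), but without the library that stood apart it shrank to −0.14 (SE 0.07, adjusted p = 0.249). The JQ1 difference was 0.09 in wild type, with a 95% interval from −0.12 to 0.29, and 0.04 in knockout cells, from −0.16 to 0.25; with library totals in place of TMM both turned negative, to −0.04 and −0.07. IL6ST lies at chr5:55935095-55994993, and its pseudogene IL6STP1 had 0 to 2 counts.

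IL6R, the alpha subunit that binds IL6, fell under JQ1 in both genotypes. Its levels were 24.3, 23.0 and 23.7 CPM in wild type in DMSO and 8.98, 11.4 and 9.88 CPM in wild type in JQ1. In knockout cells they were 16.6, 17.3 and 19.1 CPM in DMSO and 9.33, 10.9 and 11.5 CPM in JQ1. The DMSO groups did not overlap with each other or with the JQ1 groups, and the JQ1 groups overlapped with each other. IL6R changed by −1.23 in wild type (SE 0.10, adjusted p = 4.47e-07) and by −0.74 in knockout cells (SE 0.10, adjusted p = 5.63e-05). It was lower in knockout cells in DMSO by −0.42 (SE 0.10, adjusted p = 0.0147), and the difference in JQ1 was 0.07 (SE 0.11, adjusted p = 0.776). The DMSO difference did not pass with the factors of the authors' normalized table (0.0980), with limma on that table (0.118), or without wild-type DMSO replicate 1 or 3 or knockout DMSO replicate 1 or 2 (0.0559 to 0.0743). The gene lies on chromosome 1 (chr1:154405193-154469450), as does MAPKAPK2 (chr1:206684944-206734283).

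OSMR, the oncostatin M receptor subunit, rose under JQ1 in both genotypes. It measured 66.3, 62.5 and 64.2 CPM in wild type in DMSO and 89.9, 88.3 and 92.6 CPM in wild type in JQ1. In knockout cells it measured 69.1, 69.3 and 72.5 CPM in DMSO and 93.7, 96.9 and 88.3 CPM in JQ1. Every JQ1 library was above every DMSO library. The rise was 0.49 on the log2 scale in wild type (SE 0.06, adjusted p = 9.29e-06) and 0.40 in knockout cells (SE 0.06, adjusted p = 4.92e-05). The genotypes differed by 0.13 in DMSO (SE 0.06, adjusted p = 0.214) and 0.04 in JQ1 (SE 0.06, adjusted p = 0.743). The DMSO difference was 0.23 with the factors of the authors' normalized table and then passed, at 0.0450, and with limma on that table at 0.0475. OSMR (chr5:38845858-38945596) overlaps RICTOR on the opposite strand, which had 2946 to 5505 counts per library against 1764 or more for OSMR.

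LIFR, the subunit that binds LIF and pairs with gp130, moved under JQ1 in the direction opposite to OSMR. Its levels were 98.1, 96.8 and 92.9 CPM in wild type in DMSO and 73.8, 76.4 and 82.1 CPM in wild type in JQ1. In knockout cells they were 113, 103 and 98.1 CPM in DMSO and 78.9, 77.6 and 57.6 CPM in JQ1. Every JQ1 library was below every DMSO library. LIFR changed by −0.31 in wild type (SE 0.10, adjusted p = 0.0252) and by −0.56 in knockout cells (SE 0.10, adjusted p = 4.68e-04), or by −0.42 in knockout cells without the library that stood apart. The wild-type change did not pass with the authors' factors (0.0974), with limma on the normalized table (0.105), or without any single wild-type DMSO library or wild-type JQ1 replicate 1 or 2 (0.0539 to 0.0988). Between genotypes LIFR differed by 0.13 in DMSO (adjusted p = 0.538) and −0.12 in JQ1 (adjusted p = 0.562). LIFR (chr5:38474963-38608354) overlaps LIFR-AS1, which had 74 to 167 counts against at least 1820 for LIFR.

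**Figure D3:**
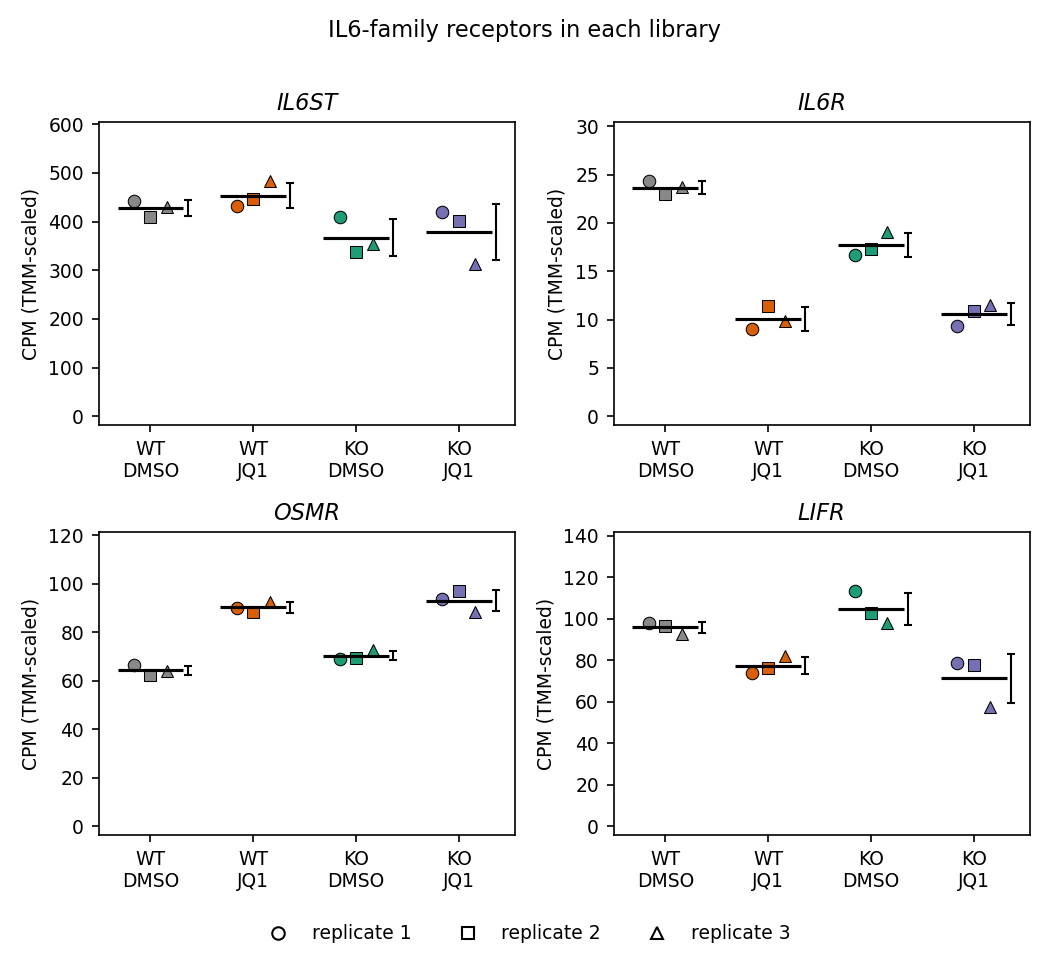
Levels of IL6ST, IL6R, OSMR and LIFR (y axis, CPM scaled by TMM, each panel on its own scale from 0) in the 12 libraries by group (x axis), with bars for the group mean and brackets for ± SD (n = 3). IL6R and LIFR are lower and OSMR higher in JQ1 than in DMSO. IL6ST is lower in each knockout group than in the wild-type group of the same treatment, but neither difference passed the threshold.

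STAT3, the transcription factor that the receptors activate, was higher in JQ1 and higher in knockout cells. It measured 98.3, 96.4 and 103 CPM in wild type in DMSO and 142, 137 and 129 CPM in wild type in JQ1. In knockout cells it measured 124, 131 and 137 CPM in DMSO and 156, 159 and 180 CPM in JQ1. Wild type in DMSO was below all other groups and knockout in JQ1 above all others, and the 2 groups between them overlapped. JQ1 raised STAT3 by 0.45 on the log2 scale in wild type (SE 0.07, adjusted p = 9.96e-05) and by 0.33 in knockout cells (SE 0.07, adjusted p = 0.00107). The rise in knockout cells was 0.27 (SE 0.06) without the library that stood apart. The knockout difference was 0.40 in DMSO (SE 0.07, adjusted p = 0.00138) and 0.28 in JQ1 (SE 0.07, adjusted p = 0.0153). The difference in JQ1 did not pass with only these groups in the fit (0.0688) or without wild-type JQ1 replicate 2 (0.0529) or 3 (0.0760), and it did pass without the library that stood apart, at 0.21 (0.0254). STAT3 lies at chr17:42313324-42388568. RNA levels say nothing about STAT3 phosphorylation, which was not measured here.

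SOCS3, the feedback inhibitor of gp130, was higher in knockout cells in DMSO. Its levels were 22.3, 22.6 and 24.7 CPM in wild type in DMSO and 31.9, 27.6 and 24.9 CPM in wild type in JQ1. In knockout cells they were 28.7, 31.6 and 31.7 CPM in DMSO and 30.4, 30.1 and 36.3 CPM in JQ1. Wild type in DMSO was below all other groups, although its highest library lay just under the lowest wild-type library in JQ1. SOCS3 was higher by 0.40 in knockout cells in DMSO (SE 0.10, adjusted p = 0.0198) and by 0.28 in wild-type cells under JQ1 (SE 0.10, adjusted p = 0.0421). In knockout cells the JQ1 difference was 0.08 (SE 0.10, adjusted p = 0.601), and it was negative without the library that stood apart (−0.02) and with library totals in place of TMM (−0.04). The knockout difference in JQ1 was 0.20 (SE 0.10, adjusted p = 0.274), or 0.10 (SE 0.09) without the library that stood apart. The wild-type JQ1 response was lost with library totals, at 0.15 (0.231), and without wild-type DMSO replicate 1 or 2 or wild-type JQ1 replicate 1 or 2 (0.0790 to 0.214). The knockout difference in DMSO was lost without wild-type DMSO replicate 1 or 2 or knockout DMSO replicate 2 or 3 (0.0569 to 0.0737). SOCS3 lies at chr17:78356778-78360077.

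**Figure D4:**
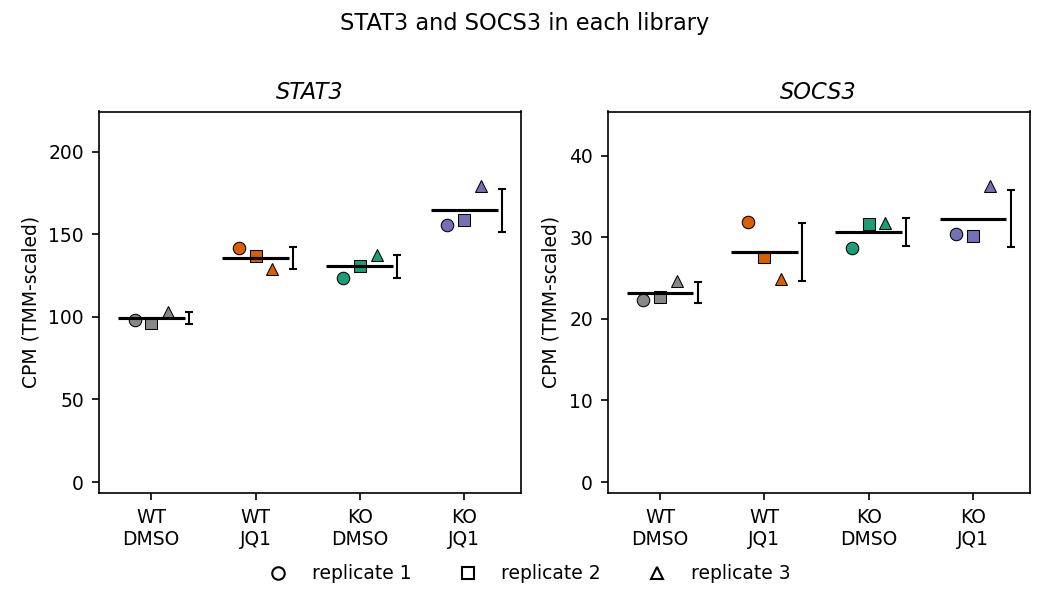
Levels of STAT3 and SOCS3 (y axis, CPM scaled by TMM, each panel on its own scale from 0) in the 12 libraries by group (x axis), with bars for the group mean and brackets for ± SD (n = 3). STAT3 is lowest in wild type in DMSO, at 99.3 ± 3.51 CPM, and highest in knockout in JQ1, at 165 ± 13.0 CPM; SOCS3 is lowest in wild type in DMSO, at 23.2 ± 1.27 CPM.

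No member passed the test of whether the JQ1 response differed between genotypes, with edgeR or with DESeq2, and 0.134% of all genes passed it with edgeR (0.0323% with a higher and 0.101% with a lower response in knockout cells). At an unadjusted p below 0.05 there were 1817 of the 21698 genes and 1 of the 9 members, IL6R, whose response was 0.49 less negative in knockout cells (SE 0.14, 95% interval 0.18 to 0.80, adjusted p = 0.307). For IL11 the difference of responses was 0.32 (95% interval −0.10 to 0.74) and for CLCF1 −0.52 (−1.20 to 0.16). For LIFR it was −0.25 (−0.54 to 0.05) and for STAT3 −0.12 (−0.32 to 0.08). These intervals leave room for responses of unequal size, so the data do not show that the genotypes responded alike. In the fit without the library that stood apart, 0 members passed, but the values moved. The difference of responses was then −0.90 for CLCF1 (SE 0.29) and −0.18 for STAT3 (SE 0.08). For SOCS3 it went from −0.20 (SE 0.14) to −0.30 (SE 0.12). It was −0.11 for LIFR, 0.15 for IL11 and 0.43 for IL6R.

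Around the members, 43 further genes of the pathway were listed by role, and 35 passed the low-count filter. OSM, CTF1, IL27, IL31, CNTFR, CISH, FGL1 and LBP did not. EBI3, SOCS1 and PTPN6 passed that filter only through groups where they were high. Their calls, included in the counts below, are therefore not independent of the filter. JQ1 raised 15 and lowered 8 of the 35 in wild type, and raised 15 and lowered 8 in knockout cells. Over all tested genes 16.9% rose and 16.2% fell in wild type, and 16.7% rose and 17.8% fell in knockout cells. The median log2 fold change of the listed genes was 0.14 and −0.02, beside −0.03 and −0.004 over all tested genes. Among the other ligand genes, EBI3, which encodes a subunit of IL27, fell in both genotypes, from 1.73 ± 0.576 to 0.102 ± 0.0952 CPM in wild type and from 1.22 ± 0.156 to 0.0613 ± 0.0804 CPM in knockout cells, with 0 counts in the lowest library of each JQ1 group. Among the other receptors, IL27RA, which pairs with gp130 to bind IL27, fell from 33.5 ± 1.15 to 11.1 ± 0.0929 CPM in wild type (log2 fold change −1.59, SE 0.08, adjusted p = 2.67e-09). In knockout cells IL27RA fell from 38.2 ± 3.02 to 12.2 ± 0.783 CPM (−1.65, SE 0.08, adjusted p = 1.41e-09). IL11RA, the alpha subunit for IL11, did not pass in any of the 4 comparisons and had group means of 5.92 to 7.22 CPM.

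Of 6 kinases and other STAT genes, 2 rose and 2 fell with JQ1 in each genotype, while 33.1% of all tested genes passed in wild type and 34.4% in knockout cells. JAK1 rose from 123 ± 2.19 to 177 ± 2.16 CPM in wild type, and STAT5A fell from 24.8 ± 1.05 to 9.98 ± 1.04 CPM. Of 8 tested inhibitors and phosphatases, 4 rose and 2 fell in wild type, and 3 rose and 2 fell in knockout cells, to be read against the same shares. SOCS2, a feedback inhibitor of growth hormone signalling, fell from 19.8 ± 0.688 to 4.27 ± 0.223 CPM in wild type (−2.21, SE 0.09, adjusted p = 6.16e-10). In knockout cells SOCS2 fell from 16.4 ± 0.585 to 3.80 ± 0.365 CPM (−2.11, SE 0.10, adjusted p = 9.62e-10). SOCS2 and SOCS3 thus differed in direction in wild-type cells under JQ1, although the SOCS3 call was lost in the alternative analyses named above. SOCS1, at low levels, rose from 0.167 to 0.980 CPM in wild type (2.55, SE 0.38, adjusted p = 1.23e-04). That change rests on 4 to 6 counts per library in DMSO and 25 to 39 in JQ1. In knockout cells SOCS1 rose from 0.281 to 0.778 CPM (1.47, SE 0.37, adjusted p = 0.00587). The receptor-shedding proteases ADAM10 and ADAM17 did not pass in any of the 4 comparisons.

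Of 14 tested genes that STAT3 is known to induce in other settings, JQ1 raised 9 and lowered 1 in wild type, and raised 10 and lowered 1 in knockout cells. Over all tested genes 16.9% rose and 16.2% fell in wild type, and 16.7% and 17.8% did so in knockout cells. The median log2 fold change of these targets was 0.48 and 0.45, beside −0.03 and −0.004 over all tested genes. TIMP1, an inhibitor of metalloproteinases, rose from 101 ± 0.937 to 223 ± 9.28 CPM in wild type (1.14, SE 0.07, adjusted p = 4.02e-08). CCND1, which encodes cyclin D1, rose from 271 ± 9.42 to 539 ± 25.0 CPM in knockout cells (0.99, SE 0.05, adjusted p = 4.26e-09). CEBPD was the gene that fell in both genotypes, and MYC did not pass in either. These targets are shared with other transcription factors, and STAT3 activity was not measured in these data.

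**Figure D5:**
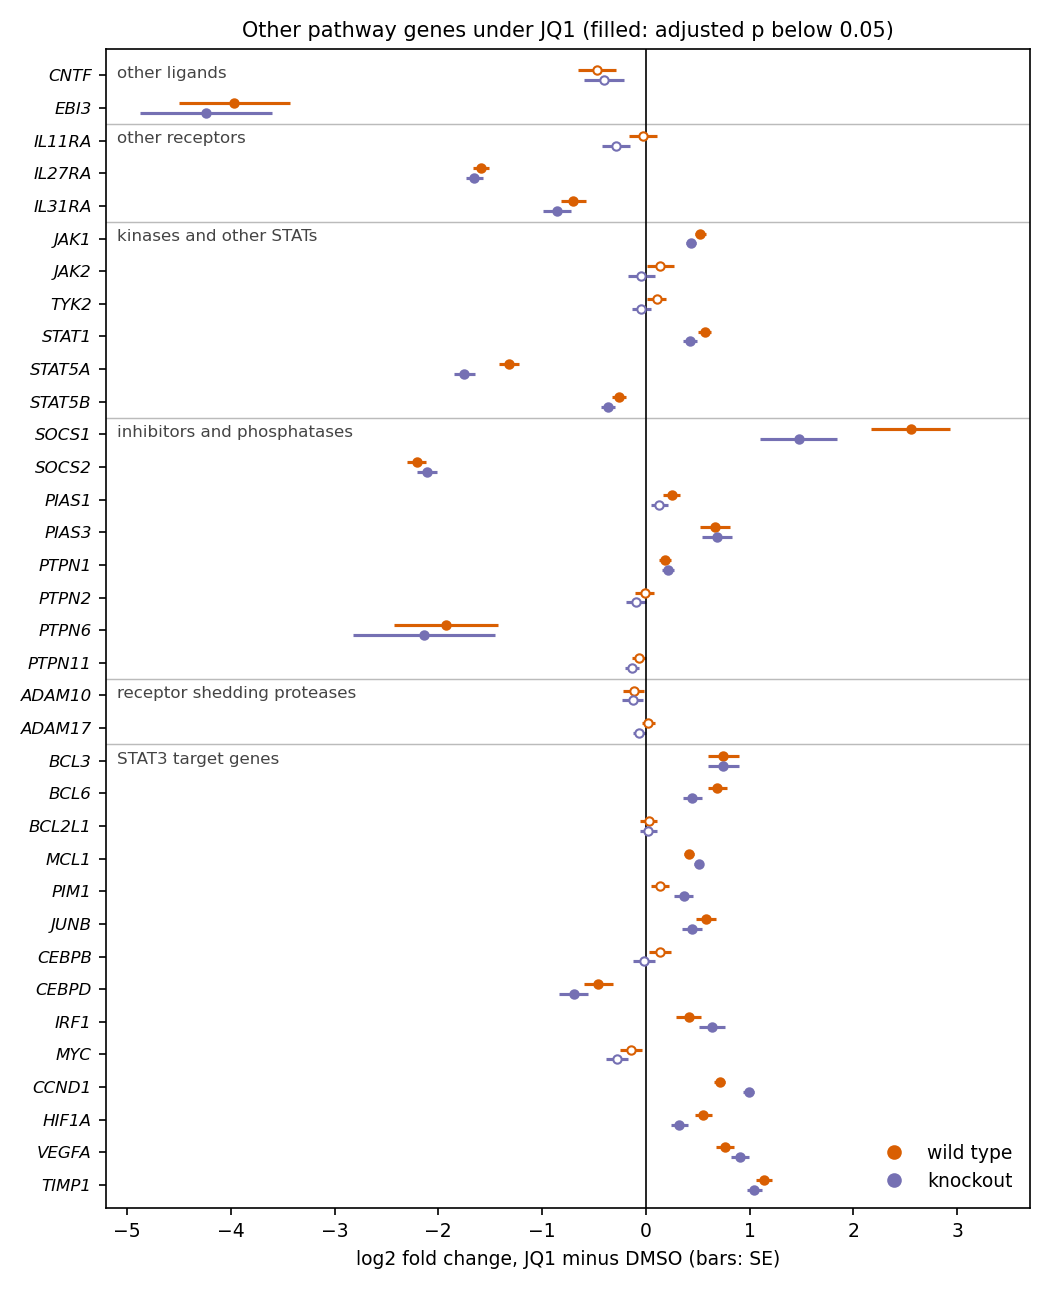
Log2 fold changes, JQ1 minus DMSO (x axis), of the 35 tested pathway genes outside the 10 members (y axis, grouped by role) in wild-type and knockout cells, with bars for the SE and filled points where the adjusted p was below 0.05. SOCS2 (−2.21 and −2.11) and IL27RA (−1.59 and −1.65) lie to the left in both genotypes, and most STAT3 target genes lie to the right of 0.

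Between genotypes, 4 of these 35 genes passed in DMSO (1 higher, 3 lower in knockout cells), or 11.4% against 7.92% of all tested genes. In JQ1, 3 of 35 passed (all lower), or 8.57%, the same share as over all tested genes. The median difference was −0.03 in DMSO and −0.12 in JQ1, beside −0.005 and −0.002 over all tested genes. In DMSO, MYC was higher by 0.50, from 10.6 ± 0.317 to 14.9 ± 0.920 CPM (SE 0.11, adjusted p = 0.00835), and CCND1 was lower by −0.32, from 339 ± 16.3 to 271 ± 9.42 CPM (SE 0.05, adjusted p = 0.00116). VEGFA, a driver of vessel growth, was lower by −0.40, from 28.4 ± 1.76 to 21.5 ± 1.85 CPM (SE 0.09, adjusted p = 0.00883). In JQ1, STAT5A was lower by −0.73, from 9.98 ± 1.04 to 5.98 ± 0.664 CPM (SE 0.10, adjusted p = 3.46e-04). HIF1A was lower by −0.44, from 365 ± 18.4 to 269 ± 31.4 CPM (SE 0.08, adjusted p = 0.00289). The library that stood apart had the lowest HIF1A value of its group, 234 CPM against 294 and 280 CPM. IL31RA, a receptor chain that pairs with OSMR to bind IL31, was lower by −0.68, from 4.60 ± 0.371 to 2.88 ± 0.327 CPM (SE 0.13, adjusted p = 0.00477). Without the library that stood apart, 10 pathway genes passed in DMSO in place of 4 and 6 in JQ1 in place of 3, and without knockout DMSO replicate 2 there were 2 in DMSO. In the difference of JQ1 responses no pathway gene passed with edgeR, 2 had an unadjusted p below 0.05, and DESeq2 called 1, CCND1, at 0.26 (adjusted p = 0.0376).

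For each tested ligand, the 2 genes most alike over the 12 libraries were found by Pearson's r of log2 CPM among 11747 candidates. For IL11 these were CREB3L2, at 0.997, and KIAA1549L, at 0.992. CREB3L2 had group means of 103 CPM in wild type in DMSO, 166 in wild type in JQ1, 87.2 in knockout in DMSO and 154 in knockout in JQ1. For LIF they were RBM10 (0.928) and MMP2 (0.925), and for CLCF1 they were ISLR (0.973) and GALNT6 (0.968). ISLR had group means of 7.78, 5.23, 5.54 and 2.00 CPM in the same order, so that, like CLCF1, it was lowest in knockout cells in JQ1. The libraries share the 4 group levels, so these values describe likeness of pattern over the same groups.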

How the data were processed

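RNA depleted of ribosomal RNA was sequenced from 12 A375 libraries with a strand-keeping kit, per the labels' protocols. Estimated counts per gene symbol were deposited by the authors together with a normalized signal table, whose values are the rounded counts over factors that vary by gene and library; the submitters' processing notes name Trim Galore, cutadapt, FastQC, MultiQC, kallisto and DESeq2 and the build GRCh38.p10, with no role or order. The normalized table holds 32828 genes, each with a summed rounded count of at least 10. Estimated counts were rounded here, filtered with filterByExpr over the 4 groups and scaled by TMM (factors 0.926 to 1.06). One edgeR 4.0.16 quasi-likelihood model over the 4 groups (R 4.3.3) gave 5 contrasts, with Benjamini-Hochberg adjustment over 21698 genes and a threshold of 0.05. CPM is the count per 1000000 of the TMM-scaled library; fold changes use edgeR's prior count of 0.125, the SE is the absolute log2 fold change over the square root of F, and intervals are 95%. At about 30189017 counts per library, a count of 3 is 0.0825 to 0.122 CPM. The model was also run on counts simulated from its own fitted spread, with no library that stood apart. That run cannot show how the calls fare with such a library.

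The 10 members, the 43 pathway genes and the marker lists were chosen with earlier results of these data known; 1 other listed gene is not reported here. The text names all members, MAPKAPK2, the 3 pathway genes of smallest adjusted p past the threshold in each comparison and, per tested ligand, the 2 genes of highest r (prior count 2, group mean of 5 CPM or more in at least 1 group); other pathway genes were named after their values were seen. Alternatives were DESeq2 1.42.0, limma 3.58.1 on log2 of the normalized values + 1, library totals, DESeq2 size factors, the authors' factors as offsets, no low-count filter, at least 1 CPM in 3 libraries, only the groups compared, a replicate block, an adjusted p of 0.01 and each library left out in turn. Coordinates are from GENCODE 29 (GRCh38) and promoters from RefSeq (GRCh38.p14).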

Additional observations from a re-analysis of the deposited data

How the results depend on the processing

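Over the 45 results of single members, 936 alternative values were computed: 872 kept their direction and their side of the threshold, 35 lost a call, 13 gained one and 16 changed sign, none of these among results that passed with all libraries. With library totals, LIF under JQ1 in knockout cells was −0.0154, IL6ST −0.0425 in wild type and −0.0685 in knockout cells, and SOCS3 −0.0413 in knockout cells; with limma that LIF value was −0.00106. The other sign changes came from leaving out 1 library. Under JQ1 in knockout cells, LIF ranged from −0.00963 (without knockout JQ1 replicate 3) to 0.191, IL6ST from −0.0385 (without knockout JQ1 replicate 1; −0.0187 without knockout DMSO replicate 2) to 0.166, and SOCS3 from −0.0180 (without knockout JQ1 replicate 3) to 0.126. Between genotypes in JQ1, LIF ranged from −0.0426 (without knockout JQ1 replicate 3) to 0.158, IL6R from −0.00580 (without wild-type JQ1 replicate 1) to 0.166, and LIFR from −0.199 to 0.0136 (without knockout JQ1 replicate 3). The difference of responses ranged from −0.196 to 0.00453 (without knockout JQ1 replicate 1) for LIF, and from −0.126 to 0.0776 for IL6ST, which was positive without wild-type JQ1 replicate 3, knockout DMSO replicate 1 or knockout JQ1 replicate 3. Library totals moved the median of all genes to −0.16 under JQ1 in wild type and −0.12 in knockout cells; the cause of the other changes was not tested. At an adjusted p of 0.01, called members were 4 under JQ1 in wild type, 1 between genotypes in DMSO and 0 in JQ1. With only the groups compared in the fit, 5 members differed between genotypes in DMSO and 0 in JQ1, and 8 pathway genes differed in DMSO; library totals gave 7 there and 5 in JQ1, and DESeq2 gave 5 pathway genes in JQ1 and 1 in the difference of responses. Leaving out each library gave 4 to 7, 6 to 6, 1 to 5, 0 to 2 and 0 to 0 called members under JQ1 in wild type and in knockout cells, between genotypes in DMSO and in JQ1, and in the difference of responses. For pathway genes the ranges were 19 to 23, 22 to 25, 2 to 10, 3 to 6 and 0 to 0. Of 18 same-numbered pairs, 0 correlated above 0.1 (−0.115 to 0.0786) and 2 matched their own number best. The replicate block gave 6, 6, 3, 2 and 0 called members and 23, 23, 4, 3 and 0 pathway genes; among the members it ended 1 call, SOCS3 under JQ1 in wild type (adjusted p = 0.0598). Depth limits IL6, which could not be tested, and CLCF1, at 23 to 165 counts.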
